A study of Homo sapiens with 2 samples.

Results

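The 3p arms of the let-7 hairpins, listed as passenger arms, lie opposite the well-known let-7 guide strands, although let-7d-3p outnumbered its 5p arm here. They were taken by name from 2 small RNA libraries recovered on an affinity resin from MDA231 (MDA-MB-231), a cell line from a triple-negative breast tumour. The rule lists 10 names among the 2588 mature miRNA names counted, namely hsa-let-7a-3p, hsa-let-7a-2-3p, hsa-let-7b-3p, hsa-let-7c-3p, hsa-let-7d-3p, hsa-let-7e-3p, hsa-let-7f-1-3p, hsa-let-7f-2-3p, hsa-let-7g-3p and hsa-let-7i-3p, written below without the prefix for human. They were set beside the 8 5p names of the same hairpins. The bait library came from parental MDA231 lysate passed over amylose resin carrying the long non-coding RNA MACC1-AS1 fused to MS2 hairpins, made with T7 RNA polymerase and held by a fusion of maltose-binding protein with MS2 coat protein. The no-bait library came from lysate of the same parental cells, with no RNA substrate. The control therefore carried neither the MS2 hairpins alone nor an unrelated RNA, and a difference between the libraries cannot be assigned to MACC1-AS1 itself. Each group held 1 library, so no difference below has a replicate check, no p-value was computed, and every 95% interval covers counting error only.

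A let-7 gene is transcribed into a hairpin that Drosha and Dicer cut into a short duplex of a 5p and a 3p arm. An Argonaute protein keeps 1 arm, for let-7 usually the 5p arm, and the other is mostly degraded. The 5p arms repress growth genes such as RAS, MYC and HMGA2 and are known as tumour suppressors, and the protein LIN28 blocks their maturation by binding the hairpin loop. The precursors of let-7a-2, let-7c and let-7e have the usual Drosha overhang, while the other let-7 precursors have a shorter overhang that is extended by uridylation before Dicer cuts them.

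The 3p arms differ in their seeds, the bases 2 to 8 that pair with targets, whereas the 5p arms share 1 seed. RefSeq on GRCh38.p14 gave mature sequences for 9 of the 10 names (let-7f-2-3p is named only). They are shown to make the seed groups visible, with the seed in capitals, and fall into 6 seeds. The first 3 names below share UAUACAA, and let-7a-2-3p and let-7g-3p share UGUACAG.
let-7a-3p: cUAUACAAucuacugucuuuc
let-7b-3p: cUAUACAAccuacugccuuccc
let-7f-1-3p: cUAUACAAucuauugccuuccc
let-7a-2-3p: cUGUACAGccuccuagcuuucc
let-7g-3p: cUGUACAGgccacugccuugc
let-7c-3p: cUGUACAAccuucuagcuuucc
let-7d-3p: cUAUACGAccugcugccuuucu
let-7e-3p: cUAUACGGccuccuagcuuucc
let-7i-3p: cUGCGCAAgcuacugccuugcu

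All 9 begin with C and are 21 or 22 bases long. The names let-7a-2-3p, let-7c-3p and let-7e-3p, and no other of the 9, end in the same 10 bases, cuagcuuucc. Any 2 of the 3p sequences differ by at least 2 edits, whereas for 5 of the 8 5p sequences another 5p arm lies 1 edit away. No source used here says how reads matching several names were divided, so the split between near-identical 5p arms is less certain than that between 3p arms. The 5p arms of let-7a and let-7d, again with the seed in capitals, show the shared seed and the differing first base: 7 of the 8 5p arms begin with U, and let-7d-5p begins with A.
let-7a-5p: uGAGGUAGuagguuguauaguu
let-7d-5p: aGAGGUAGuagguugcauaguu

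Whole RefSeq hairpins are shown for a let-7a hairpin and for let-7d, whose arms can be compared below, namely let-7a-1 (chr9:94175957-94176036, plus strand) and let-7d (chr9:94178834-94178920, plus strand), with the 3p arm in capitals. let-7a-3p also comes from let-7a-3, and let-7a-5p from let-7a-2 and let-7a-3 as well, so arm balance is given for the let-7a names and cannot be computed for let-7a-1 alone.
let-7a-1: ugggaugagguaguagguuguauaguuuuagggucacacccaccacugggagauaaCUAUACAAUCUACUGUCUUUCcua
let-7d: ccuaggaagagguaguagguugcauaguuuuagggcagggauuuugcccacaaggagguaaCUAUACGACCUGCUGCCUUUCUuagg

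The bait library held 1047269 counts and the no-bait library 269716, a 3.88-fold difference in depth. Levels are given as RPM, the counts scaled to a library total of 1000000. They are shares of a library, so a lower level need not mean that less was recovered. A floor of 3 counts equals 2.86 RPM with bait and 11.1 RPM without. The miRNAs fixed as typical of a basal breast line (5 names) took 53.0% of counts with bait and 59.9% without. Of these, miR-100-5p alone took 29.6% and 45.3%. The 5 did not move alike: the bait over no-bait ratio of RPM was 0.200 for miR-222-3p, 0.655 for miR-100-5p and 1.27 for miR-221-3p. It was 1.72 for miR-21-5p and 11.4 for miR-125b-5p. The 5 epithelial names took 0.0181% with bait and 0.0111% without, with miR-141-3p at 0 in both libraries. The 7 blood cell names took 0.0432% and 0.0864%, with miR-144-3p, miR-223-3p and miR-150-5p at 0 in both libraries.

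The let-7 3p arms were rare and unevenly recovered. At least 1 count was seen for 8 of the 10 names with bait and for 7 of the 10 without. hsa-let-7d-3p had 380 counts with bait (363 RPM, 327 to 401) and 162 without (601 RPM, 512 to 701). It was the most abundant 3p arm in each library and held 60.2% of all 3p counts with bait (56.3 to 64.1) and 91.0% without (85.8 to 94.8).

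hsa-let-7a-3p, the product of both the let-7a-1 and let-7a-3 hairpins, had 119 counts with bait (114 RPM, 94.1 to 136) and 7 without (26.0 RPM, 10.4 to 53.5). hsa-let-7b-3p had 63 counts with bait (60.2 RPM, 46.2 to 77.0) and 5 without (18.5 RPM, 6.02 to 43.3). hsa-let-7a-2-3p had 32 counts with bait (30.6 RPM, 20.9 to 43.1) and 1 without (3.71 RPM, 0.0939 to 20.7). For let-7a-3p, let-7b-3p and let-7a-2-3p alike the interval with bait lies above that without.

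hsa-let-7e-3p had 19 counts with bait (18.1 RPM, 10.9 to 28.3) and 1 without. hsa-let-7f-1-3p had 12 counts with bait (11.5 RPM, 5.92 to 20.0) and 1 without. Both intervals with bait overlap that of a lone no-bait count, 0.0939 to 20.7 RPM. hsa-let-7c-3p had 1 count in each library, and hsa-let-7f-2-3p had 5 with bait (4.77 RPM) and 0 without. No fold is given for let-7f-2-3p, since its bait level lies under the no-bait floor of 11.1 RPM. hsa-let-7g-3p and hsa-let-7i-3p had 0 counts in both libraries, which allows each up to 3.52 RPM with bait and 13.7 RPM without (exact upper limits).

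With bait the order was let-7d-3p, let-7a-3p, let-7b-3p, let-7a-2-3p and let-7e-3p, followed by let-7f-1-3p, let-7f-2-3p and let-7c-3p. The intervals of neighbours in this order did not overlap for let-7d-3p and let-7a-3p, for let-7a-3p and let-7b-3p, or for let-7b-3p and let-7a-2-3p, and overlapped from let-7a-2-3p on. Without bait only let-7d-3p stood clear of the next name, let-7a-3p.

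**Figure D1:**
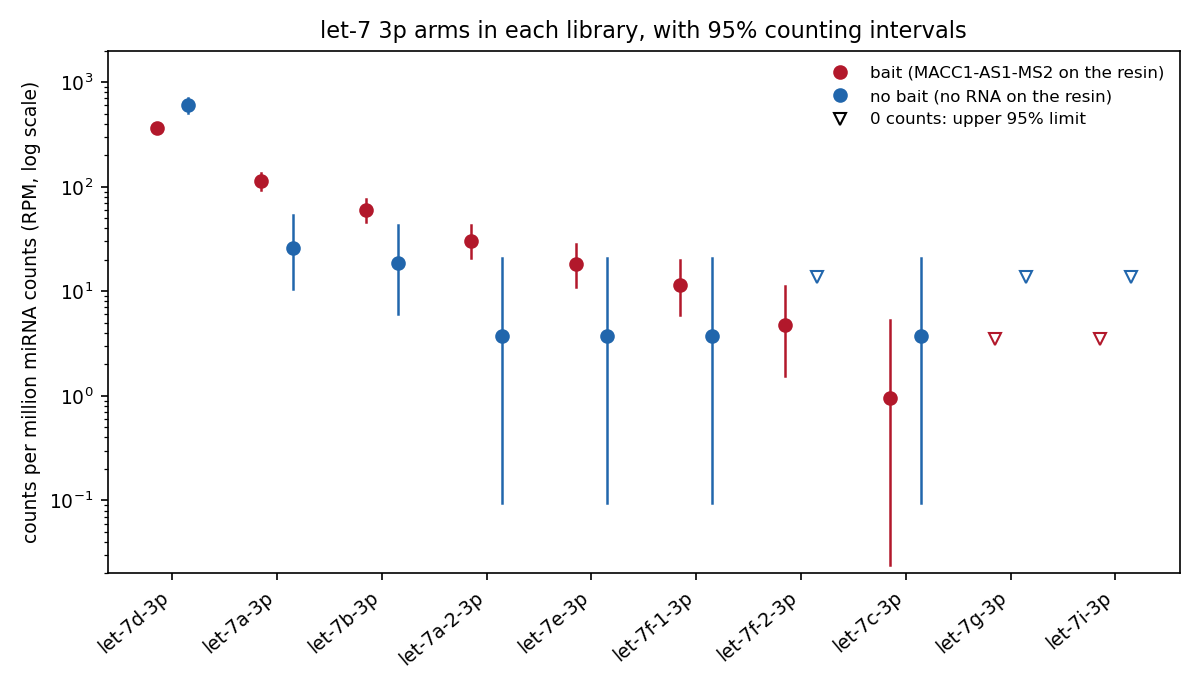
Level of each let-7 3p arm (RPM, log axis) in the bait library (red, left) and the no-bait library (blue, right), with exact 95% counting intervals. Open triangles are upper limits for 0 counts. let-7d-3p is lower with bait, while let-7a-3p, let-7b-3p and let-7a-2-3p are higher with bait by more than their intervals.

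The bait over no-bait ratio of RPM was called higher from 2 up and lower from 0.5 down, provided that its interval excluded 1 and that the summed counts of both libraries reached 30. Of the 10 3p names, 4 reached 30 counts, 3 were called higher and 0 lower. Over all 231 miRNAs with that depth, 39.4% were called higher and 26.8% lower. The 3 higher names reached the count minimum through the bait library, where they are high, so their number says little beside that background. let-7a-3p was 4.38-fold higher (2.06 to 11.1), let-7b-3p 3.25-fold higher (1.32 to 10.3) and let-7a-2-3p 8.24-fold higher (1.38 to 336), the last from a lone no-bait count. let-7d-3p had a ratio of 0.604 (0.501 to 0.731), lower with bait but inside the 2-fold rule.

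The other ratios were wide: 4.89 for let-7e-3p (0.778 to 203), 3.09 for let-7f-1-3p (0.457 to 132) and 0.258 for let-7c-3p (0.00328 to 20.2). At a minimum of 100 counts, or with the interval bound itself required to pass 2-fold, let-7a-3p alone was called higher. With DESeq2 size factors, which raise every ratio 1.34-fold, let-7d-3p had a ratio of 0.809 and the same 3 names were called. The ratio of let-7d-3p differed beyond counting error from those of the 3 names called higher, which did not differ so among themselves. The ratio of let-7a-3p was 7.25 times that of let-7d-3p (3.30 to 18.8), that of let-7b-3p 5.37 times (2.12 to 17.4) and that of let-7a-2-3p 13.6 times (2.23 to 559). Between let-7a-3p and let-7b-3p the factor was 1.35, with an interval of 0.323 to 5.16. It was 0.531 for let-7a-3p over let-7a-2-3p (0.0114 to 4.40) and 2.54 for let-7a-2-3p over let-7b-3p (0.266 to 124). These are among 10 such contrasts, and their intervals are not adjusted for that number.

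Summed over the 10 names, the 3p arms held 631 counts with bait and 178 without, or 603 RPM (556 to 651) and 660 RPM (567 to 764). The pooled ratio was 0.913 (0.772 to 1.08), an interval that includes 1. This sum is mostly let-7d-3p. Without that name the other 9 held 251 counts with bait and 16 without, 240 RPM (211 to 271) against 59.3 RPM (33.9 to 96.3), and their pooled ratio was 4.04 (2.44 to 7.18). The side of 1 on which the pooled ratio of all 10 lies depends on the scaling: it was 1.22 (1.03 to 1.45) with DESeq2 size factors and 0.835 (0.706 to 0.992) with totals that omit the 5 most abundant names. Grouped by seed, the 3 names with UAUACAA held 194 counts with bait and 13 without, and their summed ratio was 3.84 (2.20 to 7.35). In the group with UGUACAG every count came from let-7a-2-3p.

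The 5p arms of the same hairpins were far more abundant. Together they held 44602 counts with bait (42589 RPM) and 16129 without (59800 RPM), a pooled ratio of 0.712 (0.699 to 0.725). Of the 8 names 2 were higher and 2 lower, beside 39.4% higher and 26.8% lower over all miRNAs tested. let-7b-5p had 2248 counts with bait and 145 without, 3.99-fold higher (3.37 to 4.76). let-7c-5p fell to 121 counts with bait, against 172 in the shallower no-bait library, and its ratio was 0.181 (0.142 to 0.230). let-7g-5p was 2.14-fold higher (2.03 to 2.26), and 1.96-fold when library totals omit the 5 most abundant names, which ends its call. let-7i-5p was lower at a ratio of 0.367 (0.354 to 0.380). let-7d-5p had 196 and 88 counts, a ratio of 0.574 (0.444 to 0.746), and let-7e-5p 454 and 177 counts, a ratio of 0.661 (0.554 to 0.790).

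Set beside their 5p arms, the 3p arms with at least 30 counts fell into 3 patterns. For let-7d both arms had nearly the same ratio, 0.604 for 3p and 0.574 for 5p. For let-7b both arms were higher with bait, at 3.25 for 3p and 3.99 for 5p. For let-7a the arms parted: let-7a-3p was 4.38-fold and let-7a-2-3p 8.24-fold higher with bait, while let-7a-5p, which serves the let-7a-1, let-7a-2 and let-7a-3 hairpins alike, held 9866 counts with bait and 4110 without, at a ratio of 0.618 (0.596 to 0.641). Of the 3p arms with fewer counts, let-7e-3p had a ratio of 4.89 (0.778 to 203) and let-7e-5p 0.661. let-7f-1-3p had 3.09 (0.457 to 132) and let-7f-5p 0.624 (0.604 to 0.646). let-7c-3p had 0.258 (0.00328 to 20.2) and let-7c-5p 0.181.

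**Figure D2:**
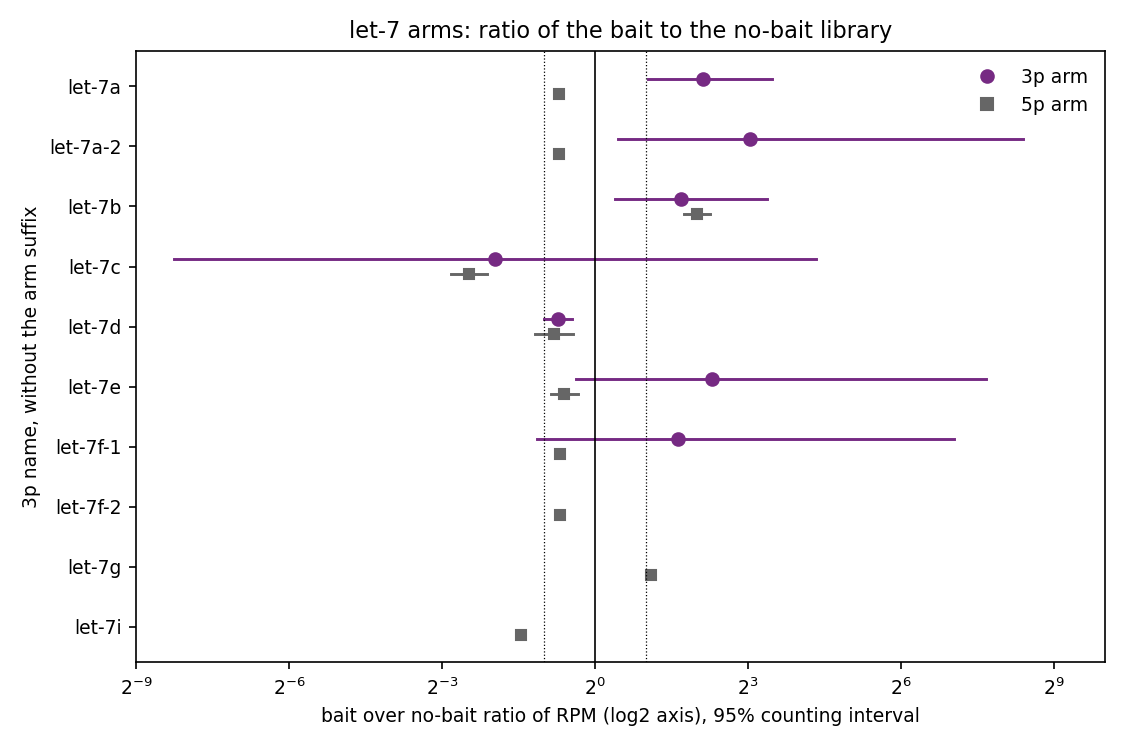
Bait over no-bait ratio of RPM (log2 axis) for the 3p arm (circle) and the 5p arm (square) of each let-7 3p name, with exact 95% counting intervals. Dotted lines mark 0.5 and 2, a 3p circle is missing where a library had 0 counts, and the 5p values of let-7a and let-7f are drawn once for each 3p name they serve. Among 3p arms with at least 30 summed counts, the arms lie together for let-7d and let-7b and apart for let-7a and let-7a-2.

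The share of 3p among 3p and 5p counts is a measure within a library, so the scaling between libraries cancels. For let-7d the 3p arm was the larger in both libraries, with 66.0% of 576 counts with bait (61.9 to 69.8) and 64.8% of 250 without (58.5 to 70.7). By counts, the name passenger therefore does not describe let-7d-3p in these libraries. The odds ratio, 3p over 5p with bait divided by 3p over 5p without, was 1.05 (0.761 to 1.45). For let-7b the 3p share was 2.73% with bait (2.10 to 3.47) and 3.33% without (1.09 to 7.61), an odds ratio of 0.813 (0.323 to 2.63). Neither interval excludes an unchanged balance, and that of let-7b also includes changes of more than 2-fold in either direction.

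For let-7a the share of let-7a-3p was 1.19% with bait (0.988 to 1.42) and 0.170% without (0.0684 to 0.350), an odds ratio of 7.08 (3.33 to 18.0). let-7a-2-3p had a share of 0.323% beside the same 5p counts with bait (0.221 to 0.456) and 0.0243% without (0.000616 to 0.135), an odds ratio of 13.3 (2.23 to 543). These pairs share their 5p counts and are not independent. Both let-7a 3p names together took 1.51% of the let-7a counts with bait and 0.194% without, an odds ratio of 7.86 (3.88 to 18.6). In let-7e the 3p share was 4.02% with bait (2.44 to 6.20) and 0.562% without (0.0142 to 3.09), an odds ratio of 7.41 (1.16 to 309) that rests on 1 no-bait count.

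In the let-7g, let-7i and let-7f hairpins next to no 3p arm was seen beside abundant 5p arms. let-7g-5p had 12641 counts with bait and 1522 without, and let-7g-3p had none, which allows a 3p share of up to 0.0292% with bait and 0.242% without (exact upper limits). let-7i-5p had 7065 and 4961 counts, and let-7i-3p a share of up to 0.0522% with bait and 0.0743% without. let-7f-5p had 12011 and 4954 counts, and the let-7f-1 and let-7f-2 3p names together took 0.141% with bait (0.0824 to 0.226) and 0.0202% without (0.000511 to 0.112). The let-7f odds ratio was 7.01 (1.10 to 293), above 1 as for let-7a, and rests on 1 no-bait count. The order of the 3p arms therefore did not follow that of their 5p arms: let-7d-3p led the 3p arms, while let-7d-5p lay far below let-7g-5p, let-7f-5p, let-7a-5p and let-7i-5p in both libraries.

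**Figure D3:**
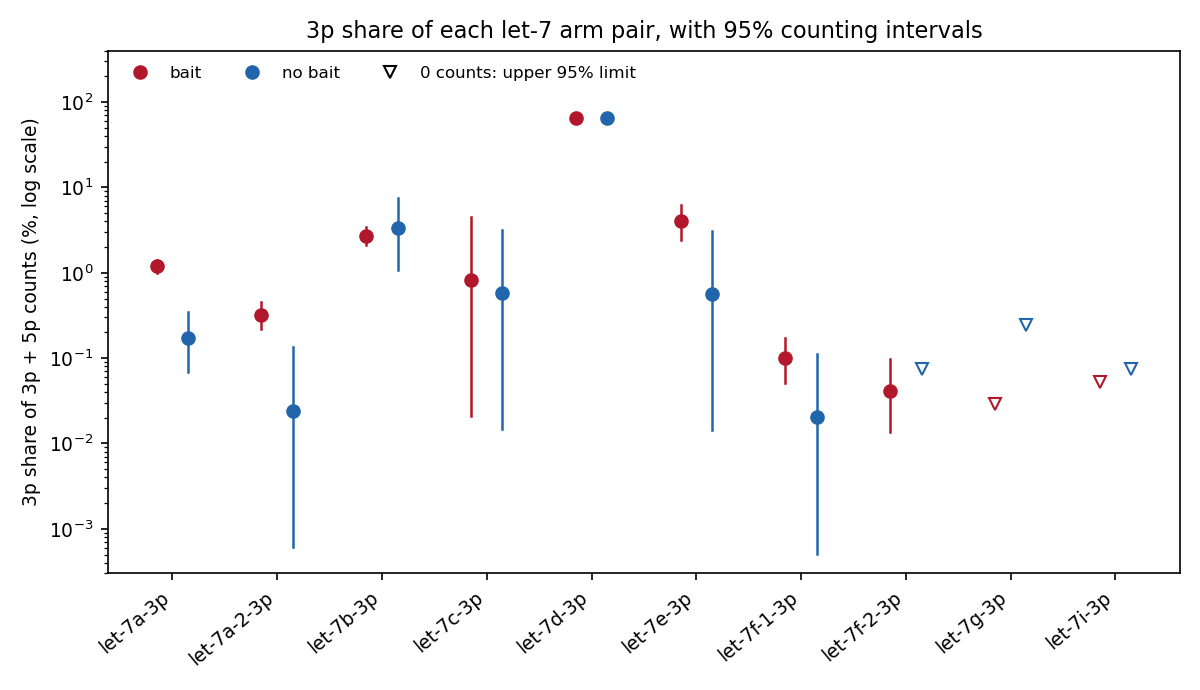
Share of the 3p arm in the 3p plus 5p counts of each let-7 arm pair (percent, log axis) with bait (red, left) and without (blue, right), with exact 95% counting intervals; open triangles are upper limits for 0 counts. let-7d stands near 65% in both libraries, and the let-7a pairs have a larger 3p share with bait.

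Pooled over the family, the 3p share was 1.395% with bait (1.29 to 1.51) and 1.09% without (0.938 to 1.26), an odds ratio of 1.28 (1.08 to 1.52). Without both let-7d arms, a setting chosen after the data were seen, the share was 0.562% with bait (0.495 to 0.636) and 0.0996% without (0.0570 to 0.162), an odds ratio of 5.67 (3.42 to 10.1). Both pooled odds ratios sum over hairpins, so they mix hairpin abundance with arm balance and do not measure the balance within a hairpin. let-7b gave 63 of the 251 bait 3p counts, although its own odds ratio was 0.813. let-7g and let-7i added 5p counts only.

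Arm balance moved in many hairpins of these libraries. Arm pairs were matched through RefSeq hairpins, and unmatched pairs are left out. Among those left out, miR-21, miR-221, miR-28 and miR-151a have at least 30 counts on each arm. In the 34 matched pairs with that depth, the odds ratio passed 2-fold with an interval excluding 1 in 64.7%. The 3p arm gained in 23.5% and lost in 41.2%. Among the 4 let-7 pairs with that depth the 3p arm gained in 2, both of let-7a, and lost in 0. Both let-7a 3p names reached the count minimum through the bait library, where they are high. Their number and the ranks that follow therefore say little beside that background. let-7a-2-3p and let-7a-3p ranked 6 and 7 of 34 from the highest odds ratio, let-7d-3p 14 and let-7b-3p 15. In the other 14 matched pairs whose 5p arm was the larger, the 3p arm gained in 1, miR-10a, lost in 10 and passed neither rule in 3. Their median odds ratio was 0.228. The unmatched miR-21 pair, also with the larger 5p arm, had ratios of 9.27 for 3p (2.48 to 78.0) and 1.72 for 5p. Its 3p arm thus rose more than its 5p arm, from 2 no-bait counts of 3p. The 3 let-7 pairs whose 5p arm was the larger had odds ratios of 0.813, 7.08 and 13.3. The number of let-7 pairs is too small, and their 5p arm too often shared, to set the family apart from these pairs.

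**Figure D4:**
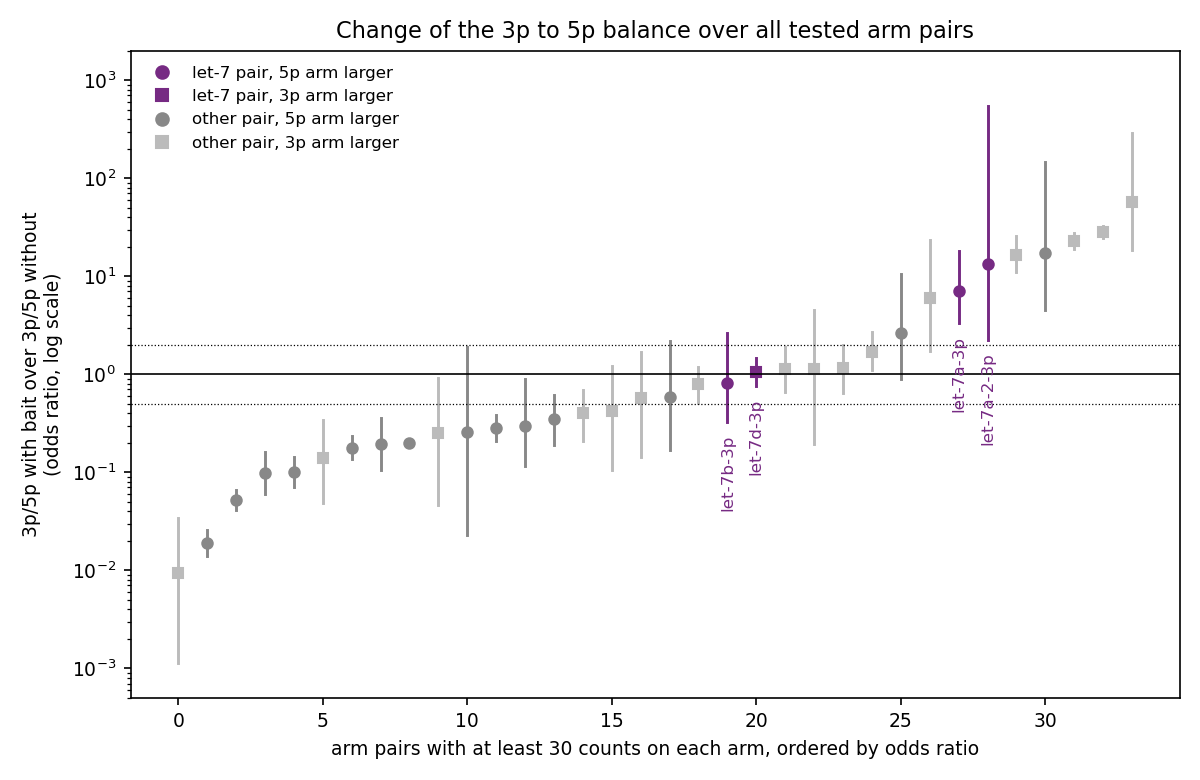
Odds ratio of 3p over 5p, bait over no-bait (log axis), for the 34 arm pairs matched through RefSeq hairpins with at least 30 counts on each arm. Pairs are in rising order, with conditional exact 95% counting intervals and dotted lines at 0.5 and 2. Circles have the larger 5p arm and squares the larger 3p arm. All let-7 pairs are purple. The let-7a pairs rank 6 and 7 of 34 from the highest, and both let-7a 3p names reached the count minimum through the bait library. The points of let-7d and let-7b lie near 1, with an interval of 0.323 to 2.63 for let-7b.

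Several let-7 hairpins lie side by side on 1 transcript, which sets 3p arms of a common precursor next to each other. On chromosome 9, let-7a-1, let-7f-1 and let-7d lie on the plus strand in introns of the lincRNA AL158152.2 (GENCODE 29, GRCh38), with 310 bases between let-7a-1 and let-7f-1 and 2400 between let-7f-1 and let-7d. Their 3p arms had ratios of 4.38 (let-7a-3p, which also comes from chromosome 22), 3.09 (let-7f-1-3p, 0.457 to 132) and 0.604 (let-7d-3p). On chromosome 22, let-7a-3 and let-7b (chr22:46113686-46113768) lie 863 bases apart in MIRLET7BHG, in sequence that is exonic in at least 1 of its transcripts, and let-7b-3p had a ratio of 3.25.

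let-7a-2 (chr11:122146522-122146593, minus strand) lies in an intron of MIR100HG with miR-100 and miR-125b-1, let-7c in an intron of MIR99AHG with miR-99a and miR-125b-2, and let-7e (chr19:51692786-51692864, plus strand) in an intron of SPACA6, opposite exonic sequence of SPACA6P-AS, with miR-99b and miR-125a. let-7f-2 shares an intron of HUWE1 with miR-98, let-7g lies in an intron of WDR82, and let-7i in an intron of AC048341.1, opposite an exon of LINC01465. Among the 8 3p names of these miRNA neighbours and of miR-4763 beside let-7b, 3 had at least 30 counts, 0 were higher and 2 were lower, beside 39.4% higher and 26.8% lower over all miRNAs tested. Of their 7 5p names 6 had that depth, 1 was higher and 0 were lower. The higher one, miR-125b-5p, which both miR-125b hairpins give, rose 11.4-fold (10.7 to 12.03), from 1260 no-bait and 55601 bait counts. Its direction was that of let-7a-2-3p. Another 5p arm from MIR100HG, miR-100-5p, went the opposite way, at 0.655 (0.650 to 0.659). So did let-7a-5p, which comes only partly from that transcript, at 0.618 (0.596 to 0.641). miR-125b-1-3p held 283 counts with bait and 123 without, at a ratio of 0.593 (0.478 to 0.738), and the ratio of let-7a-2-3p was 13.9 times as large (2.26 to 571). miR-99b-3p had 102 and 80 counts, a ratio of 0.328 (0.243 to 0.446), and the ratio of let-7e-3p was 14.9 times as large (2.25 to 627). miR-125a-3p had 25 and 23 counts, a ratio of 0.280 (0.152 to 0.516), and let-7e-3p exceeded it 17.5-fold (2.32 to 757). All 3 contrasts rest on a lone no-bait count of the let-7 arm.

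miR-98 has a let-7 seed in its 5p arm, and its 3p arm carries the UAUACAA seed. miR-98-3p had 2 counts with bait and 0 without, and miR-98-5p had 35 and 14, a ratio of 0.644 (0.338 to 1.30). Among the other 136 miRNAs with at least 100 counts, those whose log2 ratio lay nearest to the pooled 3p value of -0.13 were miR-7-5p at -0.15, miR-25-3p at -0.29 and miR-181a-3p at -0.30, a likeness over 2 libraries only.

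The 7-base complements of the 6 3p seeds were searched on the sense strand of the annotated MACC1-AS1 transcript of 639 nt in GENCODE 29. The site TTGTATA (for let-7a-3p, let-7b-3p and let-7f-1-3p) did not occur. The same held for CTGTACA (let-7a-2-3p and let-7g-3p), for TTGTACA (let-7c-3p), for TCGTATA (let-7d-3p), for CCGTATA (let-7e-3p), for TTGCGCA (let-7i-3p) and for CTACCTC, the complement of the 5p seed. Among 10912 long non-coding transcripts of 500 to 800 nt, 2.51% hold TTGTATA, 3.90% CTGTACA, 0.440% TCGTATA and 3.67% CTACCTC. The isoform and the MS2 repeats of the bait were not analysed here, and the search says only that these letters are not in that transcript.

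Of the 10 names, 2 in the authors' deposited table, let-7a-3p and let-7a-2-3p, have a p-value under 0.05, beside 5.53% of all 2588 names (143 names). Only 715 of the 2588 names had a count in either library, so 5.53% is a low background for names that were seen. The 2 of 10 is therefore not read as an excess. The log2 fold changes in the authors' deposited table are 2.13 for let-7a-3p and 3.04 for let-7a-2-3p. For let-7f-2-3p the authors' deposited table gives 8.90, computed against a replaced no-bait value of 0, and that value does not measure a fold. The test behind these p-values is not named, and it compares 2 libraries rather than conditions.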

How the data were processed

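Small RNA from 1 bait and 1 no-bait pull-down of MDA231 lysate was sequenced. For each library the authors deposited whole-number counts for 2588 mature miRNA names, with no normalization. The second value deposited by the authors is an RPM, and it matched the count over the library total to within 0.00994 RPM. The submitters' processing notes name BWA, with no version. The miRNA reference, the trimming and the handling of multiply matching reads are not stated in the labels or file headers. The authors' deposited table of comparisons gives log2 fold changes and p-values from an unnamed test.

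Counts were divided by each library's total. Ratios have exact conditional binomial 95% intervals, shares have Clopper-Pearson intervals, and odds ratios have conditional exact intervals (SciPy 1.17.1). Reads carry no molecular identifiers, so intervals and the floor of 3 counts cover counting error only. Arm pairs were taken from RefSeq hairpins (GRCh38.p14) with counts in each library, and pairs not matched that way were left out. Hairpin places are those of GENCODE 29 on GRCh38, and the authors' build is not stated in the labels. The functions were tested on simulated counts. Alternatives were edgeR 4.0.16 TMM factors, DESeq2 1.42.0 size factors, totals without the 5 most abundant miRNAs, the deposited RPM, minimums of 10 and 100 counts, no count filter, a stricter interval rule, miR-98 added, let-7d-3p left out and hairpins weighted equally.

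The miRNAs named are the 10 members, their 5p arms, miR-98, transcript neighbours, cell type markers, and the 3 miRNAs nearest in ratio. The members and lists were chosen with earlier results of these data known. miR-10a and the unmatched pairs of miR-21, miR-221, miR-28 and miR-151a were named after their values were seen.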

Additional observations from a re-analysis of the deposited data

How the results depend on the processing

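No paired analysis was possible because each group held 1 library, and no library could be left out. Scaling multiplied every ratio by 1.11 (TMM), 1.34 (DESeq2) or 0.915 (totals without the 5 most abundant miRNAs), log2 shifts of 0.15, 0.42 and -0.13, and left shares and odds ratios as they were. The same 3 members were called under each scaling and with the deposited RPM, at 10 counts and with no count filter. 1 was called at 100 counts, where fewer are tested, and 1 under the stricter interval rule, let-7a-3p both times. With DESeq2 factors let-7d-3p had a ratio of 0.809, the pooled 3p arms 1.22 (1.03 to 1.45) and the pooled 5p arms 0.954. Without the 5 most abundant miRNAs the pooled 3p ratio was 0.835 (0.706 to 0.992), so its interval lay on either side of 1 by scaling. The pooled 5p ratio was 0.792 with TMM and 0.651 without the 5 most abundant miRNAs. Leaving out let-7d-3p moved the pooled 3p ratio to 4.04, the pooled 3p share to 0.560% with bait and 0.0991% without, and the odds ratio to 5.67; leaving out both let-7d arms also gave 5.67. Weighting equally the 4 arm pairs with at least 30 counts on each arm gave a ratio of 2.90 and an odds ratio of 2.998. The shares were 17.6% with bait and 17.1% without, carried by let-7d. In these pairs let-7a-5p is counted for both let-7a 3p names. All their 3p names except let-7d-3p reached the minimum through the bait library, so a ratio above 1 says little here. Over all miRNAs, 59 were higher and 37 lower at 100 counts, against 91 and 62 at 30, and 95 were higher and 103 lower with no count filter. Higher calls made up 59.5% of all calls, 72.2% with DESeq2 factors and 48.0% with no count filter. Arms were apart in 14 of 17 matched pairs at 100 counts, against 22 of 34. Another 54 alternative values of the main results stayed within their interval or within 1.5 times the count. Of the values of single 5p arms 16 moved beyond their counting interval, and of single 3p arms only let-7d-3p with DESeq2 factors did so. Each scaling multiplies all ratios by the same factor, so which values moved depends on the width of their counting intervals. The cause of the ratios themselves was not tested. Each 3p arm other than let-7d-3p had 7 or fewer no-bait counts, which leaves any ratio of these arms wide.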
